A study of Mus musculus with 6 samples.

Results

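The BCL2 family decides whether the outer membrane of the mitochondrion is opened during apoptosis, and 10 of its genes were followed here after knockdown of the long noncoding RNA *Snhg18*. They are *Bak1*, *Bax*, *Bcl2*, *Bcl2l1*, *Mcl1*, *Bcl2l11*, *Bbc3*, *Pmaip1*, *Bid* and *Bad*. They were found by gene symbol among the 55487 genes of the count table, each symbol had 1 row, and all 10 passed the filter on low counts that left 14531 genes for testing. The cells were mPASMCs, cultured mouse pulmonary artery smooth muscle cells bought from a supplier, that received either a control siRNA without a target (si-NC) or an siRNA against *Snhg18* (si-*Snhg18*). There were 3 libraries per group, and the groups shared everything named in the labels except the siRNA. The sources used here give neither the oxygen level of the sequenced cells nor how long after transfection they were taken, and they do not say whether the 3 libraries of a group came from separate cultures, so the p-values measure the spread between these libraries, which may be technical. The libraries analysed here hold a single siRNA against *Snhg18*, so an effect of the target and an effect of this siRNA alone cannot be told apart.

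The effectors of the family, *Bak1* and *Bax*, encode proteins that assemble into pores in the outer mitochondrial membrane and release cytochrome c. *Bcl2*, *Bcl2l1* (BCL-XL) and *Mcl1* encode guardians that hold the effectors in check. *Bcl2l11* (BIM), *Bbc3* (PUMA), *Pmaip1* (NOXA), *Bid* and *Bad* encode BH3-only proteins, which carry stress signals to the guardians and effectors through a short helix called the BH3 domain. Resistance of smooth muscle cells to apoptosis is a known feature of remodeled pulmonary arteries.

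What the members share is the BH3 core, a leucine followed after a short gap by an aspartate that usually has a glycine before it. The coding bases of this core are shown because they are the stretch that makes such different genes a family. They were read from the GENCODE M21 transcripts of GRCm38, 27 bases in the direction of the transcript, with the codon of the leucine and the codon pair that ends in the aspartate in capitals.
*Bak1*, chr17:27022534-27022560, minus strand, exon 4 of 6: cagCTTgctctcatcGGAGATgatatt
*Bax*, chr7:45466000-45466026, minus strand, exon 3 of 6: tgtCTCcggcgaattGGAGATgaactg
*Bcl2*, chr1:106712578-106712604, minus strand, exon 1 of 2: accCTCcgccgggctGGGGATgacttc
*Bcl2l1*, chr2:152829700-152829726, minus strand, exon 2 of 3: gcgCTGagagaggcaGGCGATgagttt
*Mcl1*, chr3:95659433-95659459, plus strand, exon 1 of 3: accCTGcggcgcgtgGGCGACggcgtg
*Bcl2l11*, chr2:128147147-128147173, plus strand, exon 3 of 4: gagCTGcggcggatcGGAGACgagttc
*Bbc3*, chr7:16313770-16313796, plus strand, exon 3 of 4: cagCTGcggcggatgGCGGACgacctc
*Bid*, chr6:120897292-120897318, minus strand, exon 4 of 6: catCTCgcccaaataGGCGATgagatg
*Bad*, chr19:6950789-6950815, plus strand, exon 3 of 4: gagCTCcgaaggatgAGCGATgagttt

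The core of *Pmaip1* is not shown. Over these 27 bases *Bid* was the most like *Bak1*, with 18 bases the same, followed by *Bcl2l11* with 16. *Bax*, the other effector, had 14, and the guardians *Bcl2*, *Bcl2l1* and *Mcl1* had 11, 12 and 11. In *Bbc3* an alanine codon and in *Bad* a serine codon stood in the place of the glycine codon.

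The libraries held between 18097718 and 25988746 counted reads, and the members between 97 and 6169 reads in a library. CPM values are read counts scaled to a common library size with TMM factors, and on this scale a floor of 3 reads in a library, which covers counting error only, equals 0.115 to 0.164 CPM. *Snhg18* itself had 23.5, 22.4 and 22.2 CPM with si-NC (libraries 1, 2 and 3) against 10.6, 11.2 and 9.97 CPM with si-*Snhg18*, so that 46.7% remained. Libraries with the same number deviated from their group means together, most clearly those numbered 2 (r = 0.742 across genes, which are not independent replicates), so results are also given with the replicate number as a block in the fit where this changes a call. The labelled cell type was checked on its markers. All 8 smooth muscle markers passed the filter, at unlike levels. *Acta2* had at least 574 CPM in every library, but *Myh11* had 8.27 to 22.3 CPM and *Des* 2.06 to 19.6 CPM. Of 20 markers of other cell types 11 had at most 20 reads in any library, including the leukocyte gene *Ptprc*, the endothelial gene *Pecam1* and the epithelial gene *Epcam*. The other 9 passed the filter. *Pdgfra*, chosen here as a fibroblast marker and common in mesenchymal cells, had at least 304 CPM in every library. The matrix gene *Dcn*, also chosen as a fibroblast marker, had at least 37.9 CPM. Both were thus above *Myh11* and *Des* in every library. Lower reads were found for the endothelial genes *Cdh5* (203 to 247 reads in a library), *Vwf* (36 to 70) and *Tek* (4 to 32). The myeloid genes *Csf1r* (73 to 216) and *Cd68* (44 to 89) were also low. So were the fibroblast gene *Lum* (14 to 49) and the mesothelial gene *Msln* (112 to 474). In CPM, *Msln* (5.58 to 19.4) and *Cdh5* (9.34 to 11.1) nonetheless lay at levels like those of *Myh11* and *Des*. Both were above *Des* in every library but si-NC 2, and *Cdh5* was above *Myh11* in si-*Snhg18* 3 (11.1 against 8.27 CPM).

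Of the 10 members, 1 fell, *Bak1*, and 0 rose when a gene was called at an edgeR quasi-likelihood p that stays under 0.05 after adjustment, the rule used throughout. Of all tested genes 7.36% were called, 3.65% higher and 3.71% lower in si-*Snhg18* cells, so 1 call among 10 genes is near this background. At an unadjusted p under 0.05 there were 2 of 10 members, *Bak1* and *Bcl2l11*, against 3613 of the 14531 tested genes, a smaller share than over all genes. With the replicate block 2 members were called, *Bak1* lower and *Bcl2l11* higher, against 27.2% of all genes (13.6% higher and 13.6% lower). The CPM ranges of the groups did not overlap for 2 of the 10 members, again *Bak1* and *Bcl2l11*, against 30.9% of all tested genes. The log2 fold changes of the members ranged from -0.79 to 0.70, 5 above and 5 below 0, with a median of 0.01, equal to the median of all tested genes.

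**Figure D1:**
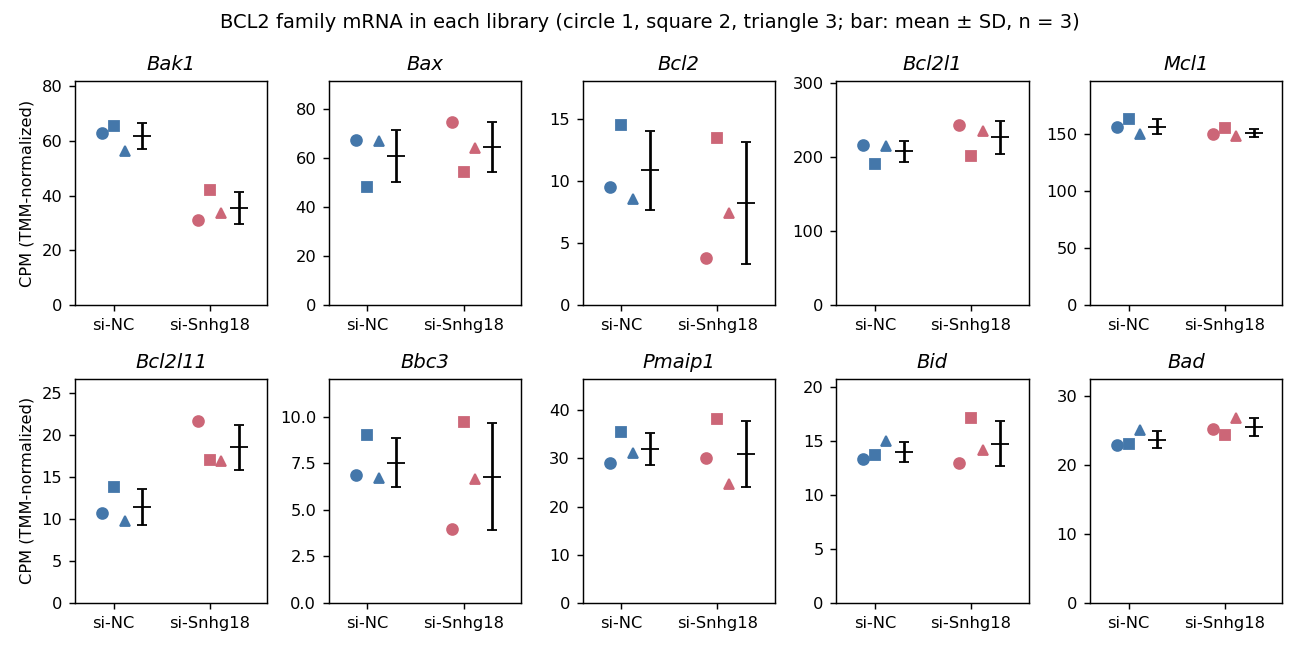
TMM-normalized CPM (linear axes from 0) of each member in the 3 si-NC (blue) and 3 si-Snhg18 (red) libraries, with replicate 1 as circle, 2 as square and 3 as triangle, and the mean ± SD as a bar (n = 3). The si-Snhg18 libraries lie below all si-NC libraries for Bak1 (at most 42.2 against at least 56.4 CPM) and above them for Bcl2l11 (at least 16.9 against at most 13.8 CPM), while the ranges of the other members overlap.

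*Bak1* (ENSMUSG00000057789), on the minus strand of chr17:27019810-27029009 in GRCm38, encodes the effector that sits in the outer mitochondrial membrane before any death signal. The si-NC libraries 1, 2 and 3 held 63.1, 65.6 and 56.4 CPM, and the si-*Snhg18* libraries 31.0, 42.2 and 33.8 CPM. Every si-*Snhg18* library was lower than every si-NC library, and si-*Snhg18* 2 was the nearest to the controls. The mean fell from 61.7 ± 4.77 to 35.7 ± 5.83 CPM (SD, n = 3 each), so that 57.8% remained, a log2 fold change of -0.79 (SE, the standard error, 0.13, edgeR adjusted p = 0.024). Between same-numbered libraries the log2 CPM was lower by 1.02, 0.64 and 0.74 for numbers 1 to 3 in si-*Snhg18* cells (differences of -1.02, -0.64 and -0.74). With the replicate block the log2 fold change was -0.80 with a smaller SE (0.09, adjusted p = 0.00151). Over the 6 fits that each leave out 1 library, it stayed between -0.93 and -0.70, but the adjusted p lay between 0.00529 and 0.132 and was under 0.05 in 1 of them, the fit without si-*Snhg18* 2. In 3 of the other fits 0 genes of the whole table were called by edgeR, while *Bak1* kept an unadjusted p between 0.00169 and 0.00485 in them. Its exons overlap those of *Ggnbp1* and *Gm50253* on the other strand, but these had at most 18 and 6 reads in any library, against 617 to 1607 for *Bak1*.

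*Bax* (ENSMUSG00000003873, chr7:45461697-45466898, minus strand) encodes the effector that waits in the cytosol and moves to the mitochondrion on activation. It was at 67.3, 48.5 and 67.0 CPM in si-NC and at 75.0, 54.6 and 64.4 CPM in si-*Snhg18* libraries 1 to 3, so the groups overlapped and the libraries numbered 2 were the lowest of each group. Its log2 fold change was 0.09 (SE 0.17, adjusted p = 0.792), and it went below 0, to -0.06 and -0.04, without si-NC 2 or si-*Snhg18* 1. *Bax* thus showed no change that its spread could resolve, while *Bak1* fell in the same libraries.

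The guardians were not called in either fit. *Bcl2l1* (ENSMUSG00000007659, chr2:152780668-152831728, minus strand) was at 217, 191 and 215 CPM in si-NC and 244, 201 and 235 CPM in si-*Snhg18* libraries 1 to 3. The si-*Snhg18* library was the higher in each same-numbered pair, by 0.17, 0.07 and 0.13 in log2 CPM, but the groups overlapped and the log2 fold change was 0.13 (SE 0.10, adjusted p = 0.464). *Mcl1* (ENSMUSG00000038612, chr3:95658788-95663176, plus strand), whose protein is short-lived and turned over by ubiquitin ligases, had the smallest SE of the 10 members. It was at 156 ± 6.59 and 151 ± 3.64 CPM (SD, n = 3 each), which is a log2 fold change of -0.05 with an SE of 0.06 (adjusted p = 0.648). *Bcl2* (ENSMUSG00000057329, chr1:106538178-106714274, minus strand), the founding member of the family, had the largest SE. It was at 9.54, 14.5 and 8.56 CPM in si-NC and at 3.84, 13.5 and 7.40 CPM in si-*Snhg18* libraries, so that both libraries numbered 2 were high and si-*Snhg18* 1 was the lowest of all. Its log2 fold change was -0.40 (SE 0.45, adjusted p = 0.630), and it moved between -0.97 and -0.05 as single libraries were left out.

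Among the 5 BH3-only members *Bcl2l11* (ENSMUSG00000027381), on the plus strand of chr2:128126038-128162547, was the 1 whose groups did not overlap. BIM, its product, binds all of the guardians. It was at 10.7, 13.8 and 9.74 CPM in si-NC and at 21.6, 17.0 and 16.9 CPM in si-*Snhg18* libraries 1 to 3, with no overlap between the groups. The means were 11.4 ± 2.11 and 18.5 ± 2.68 CPM (SD, n = 3 each), and the log2 fold change was 0.70 (SE 0.18). The adjusted p was 0.0671, above the threshold, and 0.0145 with the replicate block. DESeq2 called it (adjusted p = 0.00699) and limma-voom did not (adjusted p = 0.0648). The difference was larger in pairs 1 and 3 (1.00 and 0.79 in log2 CPM) than in pair 2 (0.30), and without si-*Snhg18* 2 the adjusted p was 0.0364.

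The other BH3-only genes did not pass the test in either fit. *Bbc3* (ENSMUSG00000002083, chr7:16308393-16318205, plus strand), a target of p53, was at 6.86, 9.02 and 6.69 CPM in si-NC and 3.96, 9.73 and 6.63 CPM in si-*Snhg18* libraries, a log2 fold change of -0.15 (SE 0.33, adjusted p = 0.811) that went to 0.12 without si-*Snhg18* 1. *Pmaip1* (ENSMUSG00000024521), whose protein binds MCL1, was at 31.9 ± 3.35 and 30.9 ± 6.80 CPM (SD, n = 3 each), and its log2 fold change was -0.05 (SE 0.17, adjusted p = 0.894). *Bid* (ENSMUSG00000004446, chr6:120891930-120916853, minus strand), which is cleaved by caspase 8 and so joins the death receptors to the mitochondrion, was at 14.0 ± 0.862 and 14.7 ± 2.10 CPM (SD, n = 3 each), and its log2 fold change was 0.08 (SE 0.14, adjusted p = 0.769). *Bad* (ENSMUSG00000024959, chr19:6941861-6951899, plus strand), which is held inactive by phosphorylation when survival kinases such as AKT are active, was at 23.7 ± 1.21 and 25.5 ± 1.29 CPM (SD, n = 3 each), and its log2 fold change was 0.11 (SE 0.09, adjusted p = 0.505). *Bid* shares 628 exonic bases with *Bcl2l13* and *Bad* shares 524 with *Gpr137*, both on the other strand and with more reads than *Bid* or nearly as many as *Bad*. The other genes within the span of a member, *Gm45808* at *Bax*, *D630008O14Rik*, *Mir3473f* and *Gm37053* at *Bcl2*, and *Gm44260* and *Gm17812* at *Bid*, had at most 13 reads in any library. The strand setting of the counting is not given in the sources used here, so the levels of *Bid* and *Bad* are less certain for that reason. *Gm45808* shares 192 exonic bases with *Bax* on the same strand, out of an exon length of 867 for *Bax*, so reads there may be ambiguous under any strand setting. The *Bax* level, with the ratios that use it, is uncertain to that extent.

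**Figure D2:**
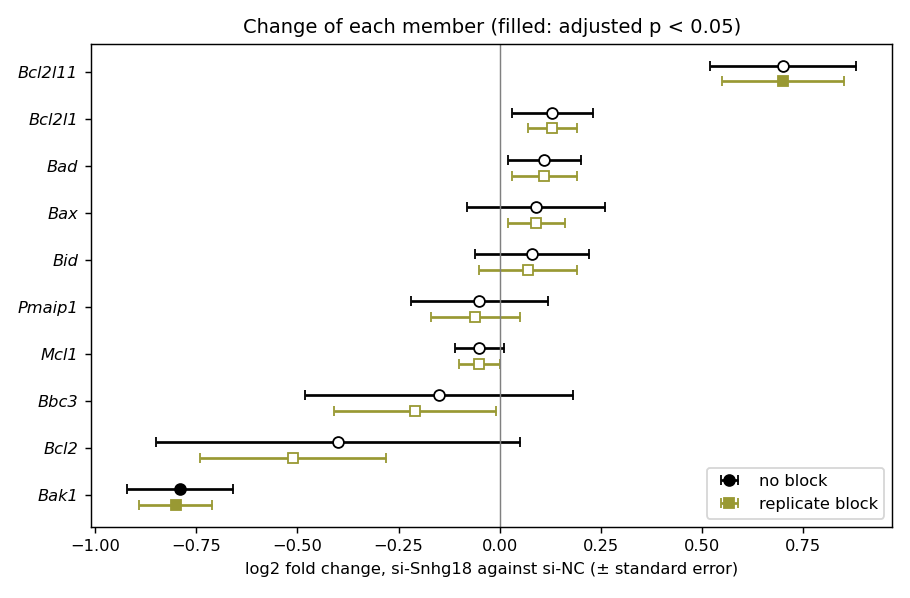
Log2 fold change of each member, si-Snhg18 against si-NC, with its SE as bars, from the edgeR fit without (circles) and with (squares) the replicate number as a block. Filled symbols have an adjusted p under 0.05, which holds for Bak1 in both fits (-0.79 and -0.80) and for Bcl2l11 (0.70) with the block.

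Levels of different genes were compared per length, as TPM, in which counts are divided by exon length and scaled to the same sum in every library. *Bcl2l1* had the highest level of the 10 genes, 201 ± 11.4 TPM in si-NC and 219 ± 15.7 TPM in si-*Snhg18* cells (SD, n = 3 each). *Bax* followed at 165 ± 27.1 and 174 ± 21.1 TPM, and the ranges of *Bcl2l1* and *Bax* over the 6 libraries overlapped (188 to 229 and 133 to 195 TPM). *Mcl1* lay below them at 98.5 to 114 TPM. *Bak1* came next in si-NC cells at 60.7 ± 5.32 TPM, above *Bad* in all 3 libraries, where *Bad* was at 36.8 to 40.2 TPM. In si-*Snhg18* cells *Bak1* was at 29.2, 42.8 and 33.4 TPM and *Bad* at 39.1, 40.7 and 43.7 TPM, so that *Bak1* was below *Bad* in libraries 1 and 3 and above it in library 2. *Pmaip1* (21.2 to 33.8 TPM) lay below *Bad* and above *Bid* (12.1 to 17.1 TPM). *Bbc3*, *Bcl2l11* and *Bcl2* were the lowest, and their ranges ran into each other. *Bcl2l11* was at 5.34 ± 1.06 TPM in si-NC cells and 8.58 ± 0.933 TPM in si-*Snhg18* cells, and *Bcl2* at 3.56 ± 1.10 and 2.72 ± 1.69 TPM. Among the 10 members *Bcl2* therefore had the lowest mean TPM in both groups, and *Bcl2l1* had the highest mRNA level of the 3 guardians. The order rests on 1 exon length per gene (7191 bases for *Bcl2*, 1814 for *Bbc3*, 867 for *Bax*), and transcript use was not examined. By mean CPM *Bbc3* was below *Bcl2* (7.53 against 10.9 in si-NC, 6.77 against 8.23 in si-*Snhg18* cells). *Bak1* and *Bax* were alike by CPM in si-NC cells (61.7 and 60.9).

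Ratios between members were formed within each library, since an effector is weighed against the guardians that bind it. *Bak1* made up 25.4%, 32.9% and 23.4% of the summed *Bak1* and *Bax* TPM with si-NC (libraries 1, 2 and 3), against 13.1%, 21.9% and 16.0% with si-*Snhg18*, with no overlap. The mean share fell by 10.2 percentage points, a difference of -10.2 that exceeds the SD of either group (5.03 and 4.52). The size of this share depends on the exon lengths, and from raw reads the difference was -14.8. The log2 ratio of *Bak1* to *Bcl2l1* was -1.73 ± 0.20 in si-NC and -2.66 ± 0.38 in si-*Snhg18* cells (SD, n = 3 each), and that of *Bak1* to *Mcl1* was -0.83 ± 0.06 and -1.57 ± 0.20. Both of these ratios were lower in 3 of 3 same-numbered pairs and in every si-*Snhg18* library than in any si-NC library. For the *Bak1* share and these 2 ratios the exact two-sided permutation test gave p = 0.1, the smallest that 3 libraries against 3 allow (0.133 after Benjamini-Hochberg adjustment over the 4 ratios computed). An exact sign-flip test over the same-numbered pairs gave p = 0.25 for each. All 3 contain *Bak1*, while *Bax*, *Bcl2l1* and *Mcl1* changed little (0.09, 0.13 and -0.05). They therefore mostly restate the fall of *Bak1* and are not separate results. The log2 ratio of *Bax* to *Bcl2* was 5.87, 4.79 and 6.02 in si-NC and 7.34, 5.07 and 6.17 in si-*Snhg18* libraries. It was higher in each same-numbered pair, but the groups overlapped, and the difference of 0.63 was smaller than the SD of the si-*Snhg18* group (1.13, exact permutation p = 0.4). It depended on single libraries, being 0.06 without si-*Snhg18* 1, 0.25 without si-NC 2 and 1.2 without si-*Snhg18* 2.

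**Figure D3:**
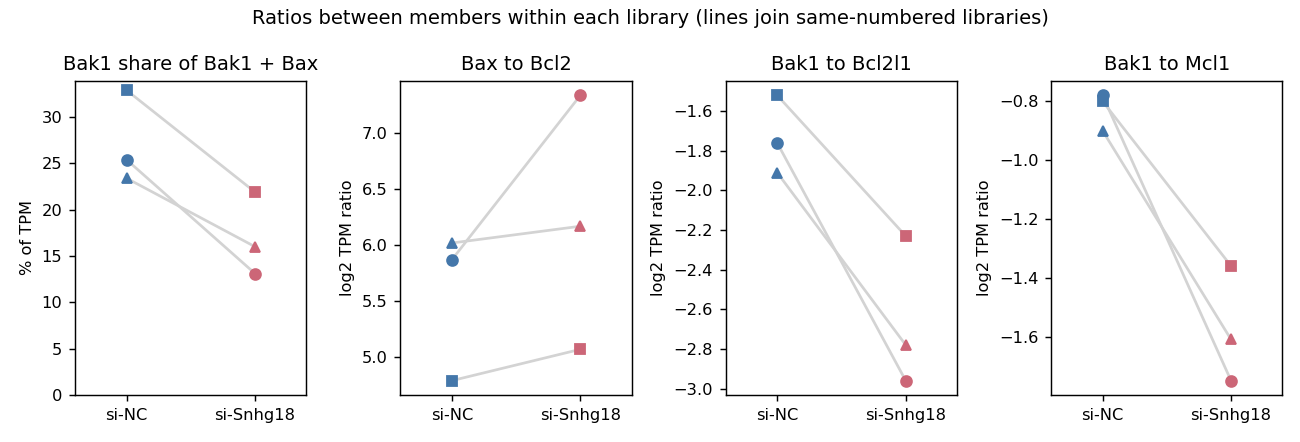
Ratios of TPM between members in each library (circle 1, square 2, triangle 3), as the share of Bak1 in the Bak1 plus Bax TPM (percent, axis from 0) and as log2 ratios (axes not from 0), with lines between same-numbered libraries. The Bak1 share (23.4% to 32.9% in si-NC, 13.1% to 21.9% in si-Snhg18) and the ratios of Bak1 to Bcl2l1 and Mcl1 are lower in every si-Snhg18 library, and the Bax to Bcl2 ratios of the groups overlap.

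The 5 genes whose log2 CPM profile over the 6 libraries, centred on its own mean, was nearest to that of *Bak1* were *Trim16*, *Pgghg*, *Lpp*, *Serpinb6b* and *Stxbp2*. Their root mean square differences from *Bak1* were 0.0370 to 0.0569 in log2 CPM, among the 11849 genes whose log2 CPM averaged at least 1. *Trim16*, the nearest, was at 60.1, 62.1 and 55.6 CPM in si-NC and 29.1, 42.6 and 33.3 CPM in si-*Snhg18* libraries, almost the values of *Bak1*. *Lpp*, a focal adhesion gene that is well expressed in smooth muscle, was at 718 to 817 CPM in si-NC and 376 to 529 CPM in si-*Snhg18* libraries. No other member of the family was among them.

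The remaining genes of the family, with the pathway around it, were described by counts. Of 15 other BCL2 family genes 8 were tested, and 7, such as *Bik*, *Hrk* and the *Bcl2a1* genes, had too few reads. None of the 8, 0 in count, was called by edgeR without the block, by DESeq2 or by limma-voom, and 1 (*Bcl2l2*) had an unadjusted p under 0.05. With the block 2 were called, both higher, 25.0% of those tested against 27.2% of all tested genes. *Bmf*, a BH3-only gene, was at 3.63, 1.55 and 3.69 CPM in si-NC and 5.58, 3.92 and 5.48 CPM in si-*Snhg18* libraries (log2 fold change 0.76, SE 0.36, adjusted p = 0.253, and 0.0324 with the block). *Bnip3l*, which marks mitochondria for removal by mitophagy, had a log2 fold change of 0.30 (adjusted p = 0.253, and 0.0202 with the block), and *Bnip3*, its relative and a known hypoxia target, had -0.01 (adjusted p = 0.972). *Bcl2l2*, a guardian, was at 48.0 ± 4.25 and 39.8 ± 1.70 CPM (mean ± SD of 3 libraries, log2 fold change -0.27, adjusted p = 0.132). *Bok*, an effector-like gene, had a log2 fold change of 0.07, *Bcl2l13* 0.20, *Bcl2l12* -0.03 and *Bcl2l15* 0.26 (-0.07 with the block), none called in either fit.

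Downstream of the mitochondrion, 20 genes of the apoptosome, the caspases, their inhibitors and the outer membrane channels were tested. *Xiap*, a caspase inhibitor, was the 1 gene called, 5.0% of the list against 7.36% of all tested genes. It rose from 92.6, 91.1 and 93.8 CPM in si-NC to 129, 108 and 128 CPM in si-*Snhg18* libraries (log2 fold change 0.40, SE 0.08, adjusted p = 0.0413, and 0.00577 with the block). With the block 8 of the 20 were called, 6 higher (among them *Casp9*, *Xiap*, *Birc2*, *Vdac1* and *Endog*) and 2 lower (*Birc3* and *Birc5*). This is 40.0% of the list, against 27.2% of all tested genes with the block. The list had a median log2 fold change of 0.00, 10 genes above and 10 below 0.

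Of 9 death receptor genes 8 were tested, and 7 of them had a log2 fold change below 0, 87.5% against 49.2% of all tested genes (median -0.32 against 0.01). The list was chosen with earlier results of these data known, and its shift as a set was not tested. *Tnfrsf10b*, the mouse TRAIL receptor, was the 1 called, 12.5% of those tested against 7.36% of all tested genes. It fell from 52.4, 58.4 and 57.9 to 32.6, 37.2 and 33.2 CPM (log2 fold change -0.71, SE 0.09, adjusted p = 0.0123), with no overlap between the groups. *Tnfrsf1a*, a TNF receptor, was at 149 ± 14.2 and 96.8 ± 19.3 CPM (mean ± SD of 3 libraries, log2 fold change -0.62, adjusted p = 0.0609, and 0.00143 with the block). With the block 5 were called, 4 lower (*Tnfrsf10b*, *Tnfrsf1a*, *Tradd* and *Cflar*) and 1 higher (*Ripk1*, 0.35). This is 62.5% of those tested, against 27.2% of all tested genes with the block.

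On the list of p53 and its target genes, 17 of 18 genes had a log2 fold change below 0, against 49.2% of all tested genes, and the median was -0.42 against 0.01. The list was chosen with earlier results of these data known, and its genes were measured in the same 6 libraries and are not independent. Its shift as a set was not tested. Without the block 4 were called, all lower, which is 22.2% of the list against 7.36% of all tested genes. *Ccng1* (cyclin G1) fell from 674 ± 14.3 to 406 ± 32.9 CPM (mean ± SD of 3 libraries, log2 fold change -0.73, adjusted p = 0.00855). *Trp53inp1* (-0.65), *Sesn2* (-0.48) and *Mdm4* (-0.37), the last a p53 inhibitor rather than an effector, had adjusted p-values of 0.0264, 0.0284 and 0.0351. With the block 15 were called, 14 lower and 1 higher, which is 83.3% of the list against 27.2% of all tested genes. The 1 higher was *Sesn1*, at 22.2, 13.7 and 26.7 CPM in si-NC and 60.7, 16.8 and 48.4 CPM in si-*Snhg18* libraries. *Perp* had the most negative log2 fold change, -1.04, at few reads (adjusted p = 0.225, and 0.0209 with the block). *Trp53* itself was at 120 ± 6.03 and 114 ± 1.15 CPM (mean ± SD of 3 libraries, log2 fold change -0.07, adjusted p = 0.515). The members *Bax*, *Bbc3* and *Pmaip1* are p53 targets too, and their log2 fold changes were 0.09, -0.15 and -0.05, none called in either fit. Without si-NC 1, si-NC 3 or si-*Snhg18* 3 this list and every other list had 0 calls, as had the whole table.

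Of 15 genes that act on BH3-only proteins or on the turnover of MCL1, 1 was called, 6.67% against 7.36% of all tested genes. *Ywhaz*, a 14-3-3 protein that holds phosphorylated BAD in the cytosol, fell from 429, 418 and 399 to 332, 348 and 319 CPM (log2 fold change -0.32, SE 0.07, adjusted p = 0.0408). *Fbxw7*, part of a ubiquitin ligase that marks MCL1 for degradation, had 0.49 (adjusted p = 0.0842, and 0.0263 with the block), and *Bag3*, a co-chaperone, had 0.49 (0.0649 and 0.00366). *Foxo3*, a transcription factor known to act on *Bcl2l11*, had 0.27 (0.342 and 0.0531). With the block 5 of the list were called, *Akt1*, *Bag3* and *Fbxw7* higher and *Mapk9* and *Ywhaz* lower. This is 33.3% of the list, near the 27.2% of all tested genes with the block.

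**Figure D4:**
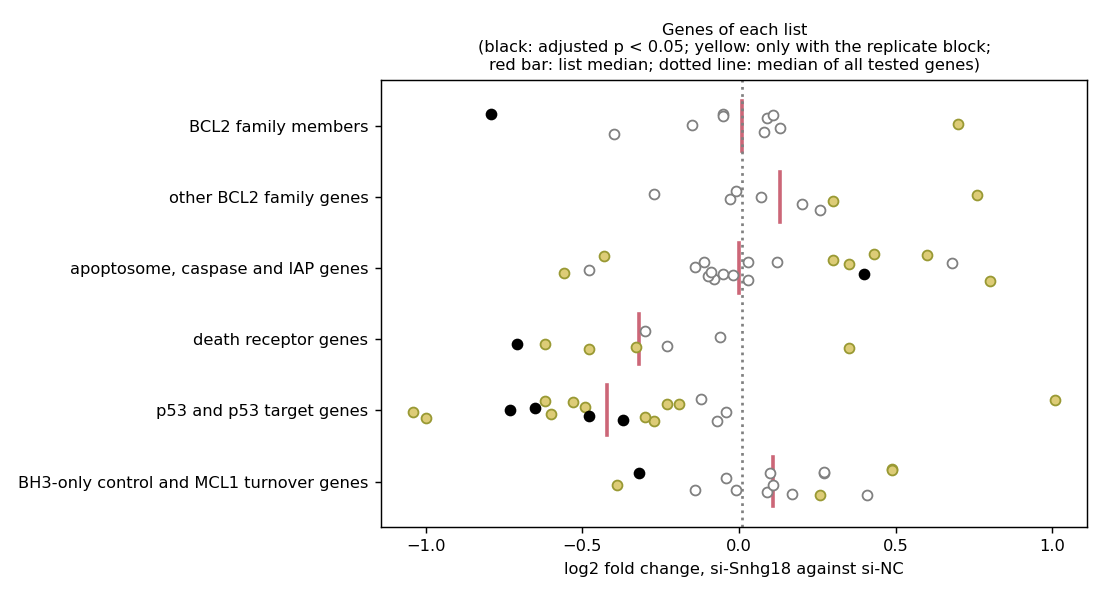
Log2 fold changes (si-Snhg18 against si-NC) of the tested genes of each list, 1 point per gene with vertical scatter for legibility only. Black points have an adjusted p under 0.05 without the block and yellow points only with it, red bars are list medians and the dotted line is the median of all tested genes (0.01). The p53 list has the lowest median (-0.42) with 17 of 18 genes below 0. The lists were chosen with earlier results of these data known, and none was tested as a set.

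Marker levels also differed between the libraries. The summed CPM of the 8 smooth muscle markers was 1990 to 2130 in si-NC and 1370 to 2080 in si-*Snhg18* libraries. Of the 8, 7 had a log2 fold change below 0, 87.5% against 49.2% of all tested genes. *Tagln* was the 1 called (-0.51, adjusted p = 0.0427), 12.5% of the list against 7.36% of all tested genes. With the block 5 of the 8 were called, all lower (*Des*, *Cnn1*, *Myh11*, *Myl9* and *Tagln*), which is 62.5% of the list against 27.2% of all tested genes. *Des*, the muscle filament gene desmin, fell most, but was not called without the block (log2 fold change -1.79, SE 0.51, edgeR adjusted p = 0.0916). With the block it had -1.76 (adjusted p = 0.00154). Its si-NC libraries 1 to 3 were spread widely, at 8.63, 19.6 and 6.57 CPM. *Acta2* was at 574 and 614 CPM in si-*Snhg18* libraries 1 and 3 and at 1040 CPM in si-*Snhg18* 2, above all si-NC libraries (813 to 940 CPM). The 20 markers of other cell types summed to 524 to 591 CPM in si-NC and 381 to 494 CPM in si-*Snhg18* libraries, most of it *Pdgfra*. Of the 9 tested, 0 were called by edgeR, against 7.36% of all tested genes. At an unadjusted p under 0.05 there were 3 of the 9, against 3613 of the 14531 tested genes. With the block 3 were called, all lower, which is 33.3% of those tested, near the 27.2% of all tested genes. The part of these shifts in the change of *Bak1* was not tested, and in bulk RNA fewer cells of a type and less RNA per cell cannot be told apart.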

How the data were processed

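RNA of si-NC and si-*Snhg18* mPASMCs was sequenced from 3 TruSeq Stranded mRNA libraries per group. The authors deposited raw read counts per Ensembl gene as whole numbers, with an exon length per gene, which for each member was the length of 1 annotated transcript, and positions on GRCm38. The submitters' processing notes list HISAT2 and mm10, and the counting program and strand setting are not given in the sources used here. All count columns were used.

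The test was edgeR 4.0.16's quasi-likelihood test in R 4.3.3 (filterByExpr with a minimum count of 10, TMM, glmQLFit and glmQLFTest, Benjamini-Hochberg adjustment over 14531 genes, threshold 0.05). The standard error is the log2 fold change divided by the square root of F. CPM use TMM factors, log2 CPM a prior count of 2, and TPM the exon lengths. Depth ranged from 18097718 to 25988746 reads, and 3 libraries against 3 cannot give an exact two-sided p under 0.1. Alternatives were RLE factors, library totals, DESeq2 1.42.0, limma-voom (limma 3.58.1), other filters, the replicate block and leaving out each library. The replicate numbers come from the labels, and deviations from the group means correlated between same-numbered libraries with r = 0.41, 0.742 and 0.359. The fit was also run on simulated counts drawn independently for each library. These lacked the correlation between same-numbered libraries, so that run cannot show how stable the calls are here.

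The members and gene lists were chosen with earlier results of these data known. Named genes are *Snhg18*, the members, the other family genes tested, the called genes and the 2 largest changes of each other list, genes overlapping a member, and the 5 profiles nearest to *Bak1*. Some genes that this rule names are not reported here. The other genes named, among them *Trp53*, *Foxo3*, the marker genes and the genes called only with the block, were chosen after their values were seen.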

Additional observations from a re-analysis of the deposited data

How the results depend on the processing

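The log2 fold change of *Bak1* kept its direction in all 13 alternatives and was called in 8. It was not called in the fits without si-NC 1, 2 or 3 or si-*Snhg18* 1 or 3, with values from -0.93 to -0.70 over the 6 leave-one-out fits. *Bcl2l11* was called with DESeq2 (0.70), with the replicate block (0.70) and without si-*Snhg18* 2 (0.75). Values that changed sign were *Bax* without si-NC 2 (-0.06) and si-*Snhg18* 1 (-0.04), *Bbc3* without si-*Snhg18* 1 (0.12), *Pmaip1* without si-NC 2 (0.04) and si-*Snhg18* 3 (0.09), and *Bid* without si-*Snhg18* 2 (-0.05), none of them called, and the cause was not tested. Over the leave-one-out fits these 4 ranged from -0.06 to 0.19, -0.52 to 0.12, -0.23 to 0.09 and -0.05 to 0.16. The block changed the call of no other member. The number of genes called was 2124 with DESeq2, 3954 with the block and 0 to 3282 in the leave-one-out fits, being 0 without si-NC 1, si-NC 3 or si-*Snhg18* 3, where 2464 to 2731 genes had an unadjusted p under 0.05 (DESeq2 and limma-voom were not run in these fits). It was 158 without si-NC 2, 319 without si-*Snhg18* 1 and 3282 without si-*Snhg18* 2.

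With DESeq2, 2 of 10 members, 5 of 20 apoptosome, caspase and IAP genes and 3 of 8 death receptor genes were called. So were 9 of 18 p53 genes and 5 of 15 genes of BH3-only control, against 2124 of all 14531 genes. With the replicate block these counts were 2, 8, 5, 15 and 5, with 2 of 8 other family genes, against 3954 of all 14531 genes. Library totals without normalization factors gave 2 apoptosome, 2 death receptor and 2 BH3-only control genes, with 1105 called over all genes. No filter other than 1 read gave 0, 2 and 0 in these lists, with 877 called over all genes. In the leave-one-out fits the counts ranged from 0 to 2 for members, 0 to 1 for other family genes, 0 to 7 for the apoptosome list, 0 to 5 for death receptors, 0 to 10 for p53 genes and 0 to 6 for BH3-only control. Each highest count came from the fit without si-*Snhg18* 2, in which 3282 of 14832 tested genes were called. With RLE factors or library totals the list medians moved by at most 0.02. *Bcl2* had the fewest reads of any member in a library (97) and an SE of 0.45, and *Bbc3*, with 100 to 253 reads, had 0.33. *Bid*, with 259 to 444 reads, had an SE of 0.14. The part of depth in these SEs was not tested.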
